A study of Mus musculus with 9 samples.

Results

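Expression of 8 genes whose products write, copy or erase repressive chromatin marks was followed in mouse CD4 T cells: Dnmt3a, Dnmt3b, Dnmt1, Uhrf1, Tet1, Tet2, Tet3 and Ezh2. They were chosen by name among 18193 genes on the array, through the symbols of the platform annotation, and 20 of 45037 probe sets carried those symbols. Each gene was represented by the probe set with the highest mean over the 9 arrays, and the remaining probe sets served as a check. Probe sets with the suffix _x_at, which can cross-hybridise, were used only where there was no other. Those with the suffix _s_at were not set aside, and the main probe set of Tet1 was of that kind. No filter on low values was applied, so all 8 genes were tested.

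The arrays fell into 3 groups of 3, described as biological replicates. The pltTGFβ_iTreg and purTGFβ_iTreg groups were induced regulatory T cells (iTreg). For both, spleen CD4+ EGFP- cells from Foxp3EGFP mice, a C57BL/6 strain in which a green fluorescent protein reports Foxp3, were cultured for 72 hours on anti-CD3 at 2.5 µg/ml with anti-CD28 at 1 µg/ml and IL2 at 100 U/ml. The TGFβ came from freeze-thaw lysates of wild type mouse platelets in pltTGFβ_iTreg and from purified TGFβ1 at 5 ng/ml in purTGFβ_iTreg. The remaining group was Tconv, conventional T cells. Its culture is not settled, because a treatment note carried by all 9 samples gives Tconv cells TGFβ1 at 5 ng/ml for 72 hours. The labels leave unsaid if EGFP+ cells were separated from the cultures ahead of RNA extraction. An iTreg array may therefore hold unconverted cells, and fewer expressing cells and less RNA per cell cannot be told apart in bulk RNA.

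DNA methylation at CpG sites silences genes through cell division. DNMT3A and DNMT3B place methyl groups on unmethylated DNA, DNMT1 copies them onto the new strand after replication, and UHRF1 brings DNMT1 to hemimethylated sites. TET1, TET2 and TET3 are dioxygenases that oxidise methylcytosine and so start its removal. EZH2 is the catalytic subunit of Polycomb repressive complex 2 (PRC2), which puts a repressive methyl mark on histone H3. In mouse regulatory T cells an enhancer of Foxp3 is demethylated with the help of TET2 and TET3, and EZH2 helps activated cells keep their identity.

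Values are log2 expression from Robust Multichip Analysis (RMA), so a difference of 1 is a 2-fold change. A gene was called changed when limma gave a Benjamini-Hochberg adjusted p under 0.1 and an absolute log2 change above 0.5, near the 1.4-fold cutoff of the study. Replicate arrays of a group correlated at 0.994 to 0.998 over probe sets, which are not independent. Foxp3, the defining factor of regulatory T cells, was dim and alike in the 3 groups on its 1 probe set. It read 3.86 ± 0.04 in pltTGFβ_iTreg, 3.77 ± 0.08 in purTGFβ_iTreg and 3.79 ± 0.12 in Tconv (SD, n = 3 each). Without detection calls, readings this low do not settle whether Foxp3 RNA differed between the groups. The groups differed in sex. Xist, transcribed from the inactive X chromosome, averaged 3.94 in pltTGFβ_iTreg and 3.61 in purTGFβ_iTreg against 10.81 in Tconv, and Y-linked Eif2s3y averaged 8.95 and 9.01 against 2.70. Y-linked Kdm5d was higher by 4.47 and 4.79. Sex and group cannot be told apart in any comparison with Tconv.

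Markers of T cells and of other cells moved between groups as well. Over 7 measured T cell markers the mean per array ran from 10.51 to 10.57 in pltTGFβ_iTreg, 10.34 to 10.46 in purTGFβ_iTreg and 10.63 to 10.84 in Tconv, with 1 called higher and 2 lower in pltTGFβ_iTreg against Tconv, and 0 higher and 2 lower in purTGFβ_iTreg. Cd5 (-0.59 and -0.84) and Cd4 (-0.62 and -0.72) were called lower in both, and Cd2 was called higher in pltTGFβ_iTreg (0.52) and was 0.35 in purTGFβ_iTreg without a call. Among 29 measured markers of B, myeloid, CD8 or NK, platelet and erythroid cells, 1 was called higher and 5 lower in pltTGFβ_iTreg than in Tconv, and 1 higher and 6 lower in purTGFβ_iTreg. The higher one was Klrd1, an NK receptor gene (3.73-fold and 9.01-fold). Lower in both were Cd79b of B cells (-1.65 and -1.46), Cd8b1 of CD8 cells (-1.04 and -0.98), the integrin genes Itgb3 (-1.27 and -3.01) and Itga2b (-0.61 and -0.63) of the platelet list, and Klf1 of the erythroid list (-0.64 and -0.56). The second Itgb3 probe set was -0.44 in pltTGFβ_iTreg without a call and was called lower in purTGFβ_iTreg at -0.69. Cd74 of the B cell list was called lower in purTGFβ_iTreg (-1.07) and was -0.45 in pltTGFβ_iTreg without a call. Calls against Tconv were made for 28.5% of all genes in pltTGFβ_iTreg and 29.3% in purTGFβ_iTreg. The means of the 6 B cell markers ran from 4.27 to 4.50 in pltTGFβ_iTreg, 4.23 to 4.42 in purTGFβ_iTreg and 4.80 to 4.88 in Tconv, and those of the 6 platelet markers from 4.58 to 4.74, 4.25 to 4.41 and 5.10 to 5.17 in the same groups. Those of 8 myeloid markers ran from 3.81 to 3.91, 3.71 to 3.91 and 3.99 to 4.19, and those of 4 erythroid markers from 3.40 to 3.47, 3.31 to 3.50 and 3.63 to 3.84. For the 5 CD8 or NK markers the means were higher in the iTreg groups. They ran from 4.98 to 5.03 in pltTGFβ_iTreg, 5.20 to 5.34 in purTGFβ_iTreg and 4.87 to 4.92 in Tconv. The median change of these 5 was -0.20 in pltTGFβ_iTreg and -0.08 in purTGFβ_iTreg, with Klrd1 called higher and Cd8b1 lower in both. The difference between the 3′ and 5′ control probe sets of Gapdh, a sign of RNA quality, was -0.20 on all pltTGFβ_iTreg arrays, -0.24 to -0.20 in purTGFβ_iTreg and -0.16 to -0.09 in Tconv on the log2 scale. The part of these in the changes below was not tested.

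Against Tconv, 4 of the 8 genes were called changed in each iTreg group. Tet2 rose, and Tet1 and Tet3 fell, in both. Dnmt3a fell in purTGFβ_iTreg and Ezh2 rose in pltTGFβ_iTreg, while Dnmt3b, Dnmt1 and Uhrf1 were called in neither. Of all genes, 28.5% were called in pltTGFβ_iTreg against Tconv (13.9% higher, 14.7% lower) and 29.3% in purTGFβ_iTreg against Tconv (14.5% higher, 14.9% lower), and with 8 genes nothing particular is read from the count of 4. Of all calls, 48.5% in pltTGFβ_iTreg and 49.3% in purTGFβ_iTreg were higher, which became 38.4% and 38.6% under quantile normalization and 55.3% and 56.5% with array medians centred. The 2 comparisons use the same Tconv arrays. The median change of the 8 genes was -0.15 in each, beside a median over all genes of -0.16 for pltTGFβ_iTreg and -0.17 for purTGFβ_iTreg.

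**Figure D1:**
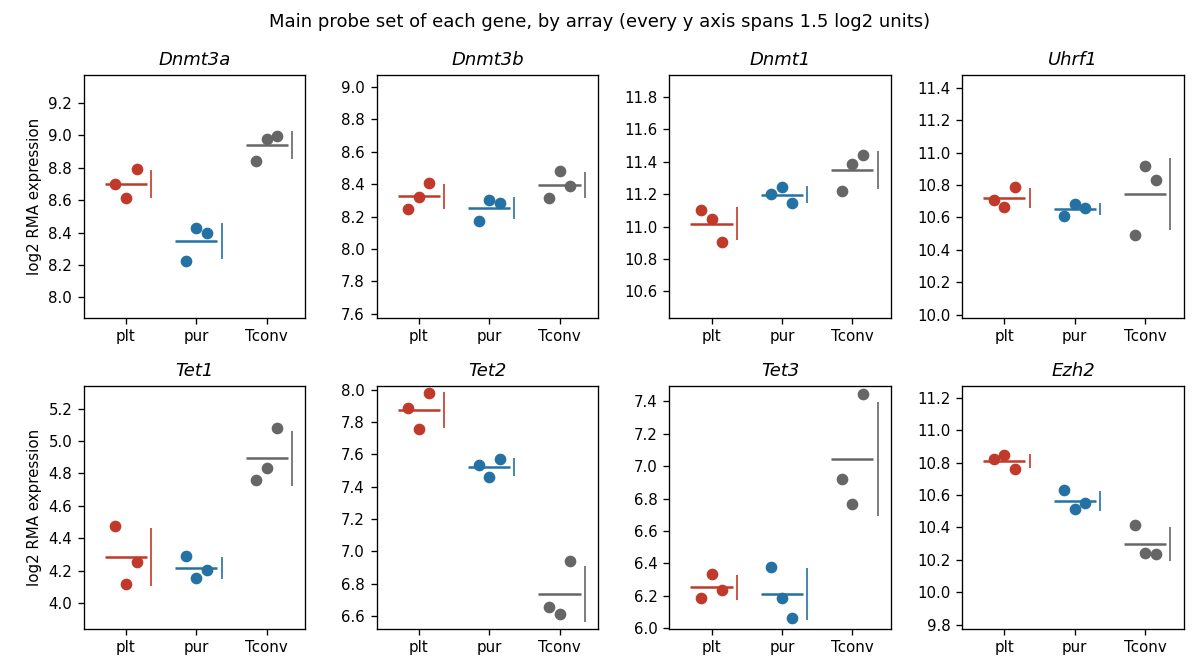
Log2 RMA expression of the main probe set of each of the 8 genes, 1 point per array, for pltTGFβ_iTreg (plt), purTGFβ_iTreg (pur) and Tconv; the horizontal line is the group mean, the vertical line at its right spans 1 SD either side (n = 3), and every panel spans 1.5 log2 units. Tet2 lies above Tconv on all iTreg arrays and Tet3 below, while the Uhrf1 points of the 3 groups overlap.

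The de novo methyltransferase Dnmt3a was lowest in purTGFβ_iTreg and highest in Tconv. It read 8.70, 8.61 and 8.79 in pltTGFβ_iTreg, 8.22, 8.43 and 8.40 in purTGFβ_iTreg, and 8.84, 8.98 and 8.998 in Tconv. No array of one group overlapped another group. Dnmt3a fell in purTGFβ_iTreg against Tconv (log2 change -0.59 ± 0.09, SE; 95% interval -0.79 to -0.39; adjusted p = 2.03e-04). In pltTGFβ_iTreg the change of -0.24 (-0.43 to -0.04) had an adjusted p of 0.0475 but stayed short of the fold cutoff. All 5 probe sets of Dnmt3a gave changes below 0 against Tconv. They ran from -0.63 to -0.21 in pltTGFβ_iTreg, 2 of them called, and from -1.02 to -0.44 in purTGFβ_iTreg, 4 of them called, where 25.3% and 25.8% of all probe sets were called. Probe sets of a gene share its RNA and are not replicates.

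Dnmt3b, the other de novo enzyme, was not called. Its values were 8.25, 8.32 and 8.41 in pltTGFβ_iTreg, 8.17, 8.30 and 8.28 in purTGFβ_iTreg, and 8.32, 8.48 and 8.39 in Tconv. The pltTGFβ_iTreg arrays overlapped both other groups. The 95% intervals of the change against Tconv were -0.25 to 0.11 for pltTGFβ_iTreg and -0.32 to 0.04 for purTGFβ_iTreg, which leave out a change past the fold cutoff for this probe set. The second Dnmt3b probe set gave -0.26 (-0.55 to 0.03) and -0.25 (-0.54 to 0.04). Dnmt3l, a cofactor of the de novo enzymes without catalytic activity, averaged 4.02 ± 0.12 in pltTGFβ_iTreg, 4.03 ± 0.15 in purTGFβ_iTreg and 4.21 ± 0.12 in Tconv (SD, n = 3 each), and was not called.

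The maintenance enzyme Dnmt1 was lowest in pltTGFβ_iTreg. It read 11.10, 11.05 and 10.91 in pltTGFβ_iTreg, 11.20, 11.24 and 11.14 in purTGFβ_iTreg, and 11.22, 11.39 and 11.44 in Tconv. All pltTGFβ_iTreg arrays lay below the other groups, whereas purTGFβ_iTreg and Tconv overlapped. The Dnmt1 change against Tconv was -0.33 ± 0.09 (SE) in pltTGFβ_iTreg (95% interval -0.53 to -0.14; adjusted p = 0.00937) and -0.15 ± 0.09 in purTGFβ_iTreg (-0.35 to 0.04; adjusted p = 0.171). Neither was called. Both other Dnmt1 probe sets, which can cross-hybridise, gave negative changes too. One of them was called lower in pltTGFβ_iTreg at -0.51, just past the cutoff.

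Uhrf1, the partner of DNMT1, read 10.71, 10.66 and 10.79 in pltTGFβ_iTreg, 10.61, 10.68 and 10.66 in purTGFβ_iTreg, and 10.49, 10.91 and 10.83 in Tconv. The Tconv arrays spread across the whole range of both iTreg groups. Its change was -0.03 (-0.26 to 0.21) in pltTGFβ_iTreg and -0.09 (-0.33 to 0.14) in purTGFβ_iTreg, so changes past the fold cutoff lie outside both intervals. The near-0 value in pltTGFβ_iTreg turned to 0.031 when array medians were centred. A second Uhrf1 probe set gave -0.04 and -0.09. The paralogue Uhrf2 rose by 0.81 ± 0.08 in pltTGFβ_iTreg and 0.97 ± 0.08 in purTGFβ_iTreg (log2, SE; limma adjusted p = 7.09e-06 and 1.41e-06).

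Dnmt1, Uhrf1 and Ezh2 are known as genes of dividing cells, whose transcription E2F factors drive at entry to S phase. Their promoters are shown because an E2F form, TTTNNCGC with C or G at both N, was found near a start of each. The search, made after the values were known, covered both strands of the RefSeq windows from 250 bases before to 50 bases after each annotated start (GRCm38.p6), and all 8 genes matched, with 13 windows. The form stood in 3 of these 13, and in 2.26% of all 32851 windows. It contains a CpG itself, and these 3 windows held 31 to 33 CpG where the median window held 7. The windows compared were not matched for CpG, so nothing is read from the 2 shares. Windows of Dnmt3a, Dnmt3b and the TET genes did not hold these letters. The matches ran from -219 to -212 on the opposite strand and from 34 to 41 in Dnmt1, from -185 to -178 in Uhrf1 and from 4 to 11 in Ezh2, counted from 1 at the start with no position 0. A match is a description of letters and not a measured site. The windows are chr9:20952574-20952873 on the minus strand for Dnmt1, chr17:56304063-56304362 on the plus strand for Uhrf1 and chr6:47594981-47595280 on the minus strand for Ezh2. Capitals mark the E2F form, and each sequence runs 5′ to 3′ along its gene.
Dnmt1: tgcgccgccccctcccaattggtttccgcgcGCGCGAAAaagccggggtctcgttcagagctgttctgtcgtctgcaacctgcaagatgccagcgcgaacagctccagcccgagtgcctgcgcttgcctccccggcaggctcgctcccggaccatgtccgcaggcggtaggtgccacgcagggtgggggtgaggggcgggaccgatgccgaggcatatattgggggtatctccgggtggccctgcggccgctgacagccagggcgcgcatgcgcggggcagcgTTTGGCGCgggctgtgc
Uhrf1: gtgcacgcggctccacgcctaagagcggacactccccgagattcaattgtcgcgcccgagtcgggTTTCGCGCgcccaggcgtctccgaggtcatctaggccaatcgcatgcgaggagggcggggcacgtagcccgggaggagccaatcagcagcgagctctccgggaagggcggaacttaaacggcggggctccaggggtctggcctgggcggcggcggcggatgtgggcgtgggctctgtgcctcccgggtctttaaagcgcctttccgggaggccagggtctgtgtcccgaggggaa
Ezh2: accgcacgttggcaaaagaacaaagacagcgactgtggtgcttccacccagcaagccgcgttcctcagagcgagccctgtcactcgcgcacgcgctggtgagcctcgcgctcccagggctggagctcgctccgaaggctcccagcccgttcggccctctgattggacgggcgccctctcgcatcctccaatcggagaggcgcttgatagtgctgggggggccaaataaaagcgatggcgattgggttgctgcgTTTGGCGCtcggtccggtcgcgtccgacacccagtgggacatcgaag

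Of these 3 genes Ezh2 rose in pltTGFβ_iTreg, and Dnmt1 and Uhrf1 were not called. Of 22 measured S phase genes, 5 were called higher and 1 lower in pltTGFβ_iTreg against Tconv, and 4 higher and 1 lower in purTGFβ_iTreg, with medians of -0.20 and -0.13. The share of all genes called, 28.5% and 29.3% in the same 2 comparisons, is the background for this and the later lists. Quantile normalization left the counts of higher calls at 5 and 4 and gave 3 lower calls in each. Ccne2, the cyclin that opens S phase, rose by 2.60 in pltTGFβ_iTreg and 2.64 in purTGFβ_iTreg on the log2 scale. Rrm2, a subunit of ribonucleotide reductase, rose by 0.72 and 0.70, and Tyms, which makes thymidylate, by 1.35 and 1.40. Tk1, the thymidine kinase of dividing cells, was the one that fell, at -0.71 and -0.64. Pcna, the replication clamp that also binds DNMT1, was called higher in pltTGFβ_iTreg at 0.50, just past the cutoff, and was 0.44 in purTGFβ_iTreg without a call. The proliferation marker Mki67 averaged 11.57 ± 0.02 in pltTGFβ_iTreg, 11.68 ± 0.12 in purTGFβ_iTreg and 9.93 ± 0.09 in Tconv (SD, n = 3 each), a rise of 1.63 and 1.75. The part of proliferation in the values of the 8 genes was not tested.

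Among the demethylating dioxygenases, Tet2 rose. It read 7.88, 7.76 and 7.98 in pltTGFβ_iTreg, 7.54, 7.46 and 7.57 in purTGFβ_iTreg, and 6.66, 6.62 and 6.94 in Tconv. The groups did not overlap, and their order was pltTGFβ_iTreg, then purTGFβ_iTreg, then Tconv. The rise against Tconv was 2.20-fold in pltTGFβ_iTreg (log2 change 1.14 ± 0.10, SE; 95% interval 0.91 to 1.36; adjusted p = 2.90e-06) and 1.72-fold in purTGFβ_iTreg (0.78 ± 0.10; 0.56 to 1.01; adjusted p = 5.63e-05). The second Tet2 probe set read 7.50, 7.47 and 7.48 in pltTGFβ_iTreg, 7.49, 7.01 and 7.23 in purTGFβ_iTreg, and 6.04, 6.09 and 6.32 in Tconv. It was called higher as well, at 1.33 and 1.09, with the iTreg groups overlapping.

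The Tet2 promoter window is printed because it is the richest in CpG among the 13, and CpG is where these enzymes act. It held 57 CpG, a number that 50 of the 32851 windows reach (0.152%), where the median window held 7. Dnmt3a followed with 47 and 46 in overlapping windows of neighbouring starts. The Tet2 window is chr3:133544341-133544640 on the minus strand (GRCm38.p6, RefSeq), with each CpG in capitals. The arrays measure no methylation there.
Tet2: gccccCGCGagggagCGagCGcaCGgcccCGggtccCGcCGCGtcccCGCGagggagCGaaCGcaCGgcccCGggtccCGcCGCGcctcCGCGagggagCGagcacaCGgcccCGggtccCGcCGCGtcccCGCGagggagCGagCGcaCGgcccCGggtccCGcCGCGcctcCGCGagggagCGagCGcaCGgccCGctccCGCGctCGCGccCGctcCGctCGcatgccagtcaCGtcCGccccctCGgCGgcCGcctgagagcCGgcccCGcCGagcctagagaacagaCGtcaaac

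Tet3 fell in both iTreg groups. It read 6.19, 6.34 and 6.24 in pltTGFβ_iTreg, 6.38, 6.19 and 6.07 in purTGFβ_iTreg, and 6.92, 6.77 and 7.44 in Tconv. Both iTreg groups lay below every Tconv array and overlapped each other, and the Tconv arrays spread most, with replicate 3 the highest. Tet3 was 1.73-fold lower in pltTGFβ_iTreg (log2 change -0.79 ± 0.15, SE; 95% interval -1.13 to -0.46; adjusted p = 0.00123) and 1.78-fold lower in purTGFβ_iTreg (-0.83 ± 0.15; -1.17 to -0.50; adjusted p = 8.33e-04). It had no other probe set with its symbol. Leaving out each array in turn kept it called, at -0.93 to -0.59 in pltTGFβ_iTreg and -0.97 to -0.64 in purTGFβ_iTreg.

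Tet1 was dim throughout. Its main probe set read 4.48, 4.12 and 4.25 in pltTGFβ_iTreg, 4.29, 4.16 and 4.20 in purTGFβ_iTreg, and 4.76, 4.83 and 5.08 in Tconv. The iTreg arrays lay below Tconv, and Tet1 was called lower, at -0.61 ± 0.11 in pltTGFβ_iTreg and -0.68 ± 0.11 in purTGFβ_iTreg (log2, SE; limma adjusted p = 9.15e-04 and 4.15e-04). The other Tet1 probe sets were not called and went both ways, at -0.21, -0.28 and 0.46 in pltTGFβ_iTreg and -0.16, -0.31 and 0.24 in purTGFβ_iTreg. With the mean of its 4 probe sets the Tet1 change was -0.16 and -0.23 and was not called. The table holds no detection calls, so whether Tet1 read above background is not settled.

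Ezh2, measured by 1 probe set, was ordered pltTGFβ_iTreg, purTGFβ_iTreg, Tconv without overlap. It read 10.82, 10.85 and 10.76 in pltTGFβ_iTreg, 10.63, 10.51 and 10.55 in purTGFβ_iTreg, and 10.42, 10.25 and 10.23 in Tconv. The rise in pltTGFβ_iTreg was 1.43-fold (log2 change 0.51 ± 0.08, SE; 95% interval 0.34 to 0.69; adjusted p = 3.03e-04). The change in purTGFβ_iTreg, 0.27 ± 0.08 (0.09 to 0.44; adjusted p = 0.0191), was under the fold cutoff. The Ezh2 call rests on that cutoff: the change was 0.47 under quantile normalization, 0.49 without pltTGFβ_iTreg replicate 2, 0.49 without Tconv replicate 2 and 0.48 without Tconv replicate 3, and was not called in any of these.

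**Figure D2:**
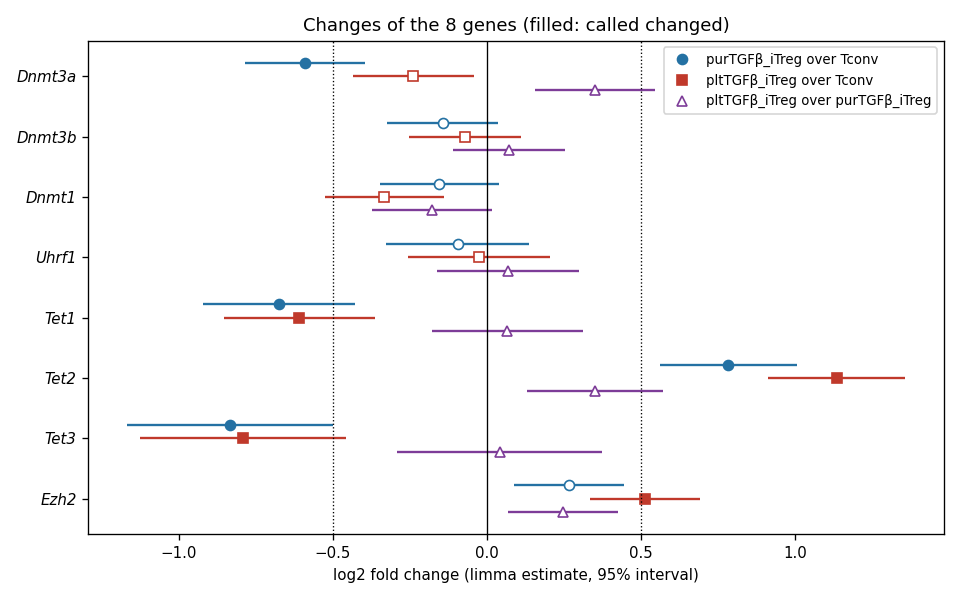
Log2 fold changes of the 8 genes by main probe set, with 95% intervals from limma over 9 arrays, for purTGFβ_iTreg over Tconv (circles), pltTGFβ_iTreg over Tconv (squares) and pltTGFβ_iTreg over purTGFβ_iTreg (triangles). Filled symbols were called changed and dotted lines mark changes of 0.5 either way; no triangle is filled.

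The direct comparison of pltTGFβ_iTreg with purTGFβ_iTreg sets platelet lysate against purified TGFβ1 in arrays that read as the same sex. No TGFβ dose is given for the lysate, and its TGFβ and its other contents cannot be told apart here. Among the 29 markers of other cells, 2 were called higher (Itgb3 at 1.75 and Cd74 at 0.61) and 1 lower (Klrd1 at -1.27) in pltTGFβ_iTreg than in purTGFβ_iTreg, and the part of such cells in this comparison was not tested. A second Itgb3 probe set gave 0.26 there (limma adjusted p = 0.28) and was not called. Of the 8 genes, limma called 0, where 4.11% of all genes were called (1.54% higher, 2.57% lower), and 3 had an unadjusted p under 0.05 where 19.0% of all genes did. Without moderated variances the contrast called 0 as well, but that repeat could not call any. It leaves the log2 changes as they are, and these ran from -0.18 to 0.35, under the fold cutoff. Of the 20 probe sets 0 were called, where 3.25% of all probe sets were. Dnmt3a was higher in pltTGFβ_iTreg by 0.35 ± 0.09 (95% interval 0.16 to 0.55; adjusted p = 0.0428) and Tet2 by 0.35 ± 0.10 (0.13 to 0.57; adjusted p = 0.0761). These were the 2 genes with an adjusted p under 0.1, as 9.72% of all genes had, and both stayed under the fold cutoff. All 5 Dnmt3a probe sets lay above 0, at 0.23 to 0.39. The second Tet2 probe set gave 0.24 with an adjusted p of 0.385. The Ezh2 difference was 0.25 (0.07 to 0.43) with an adjusted p of 0.131, and that of Dnmt1 -0.18 (-0.37 to 0.02) with an adjusted p of 0.384. The intervals of Dnmt3b (-0.11 to 0.25), Uhrf1 (-0.16 to 0.30) and Tet3 (-0.29 to 0.38) leave out a change of 0.5 in either direction. Those of Ezh2 and Dnmt1 do so as well. The Tet1 interval was -0.18 to 0.31, but RMA compresses such dim readings, so a change of 0.5 in its RNA is not left out.

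**Figure D3:**
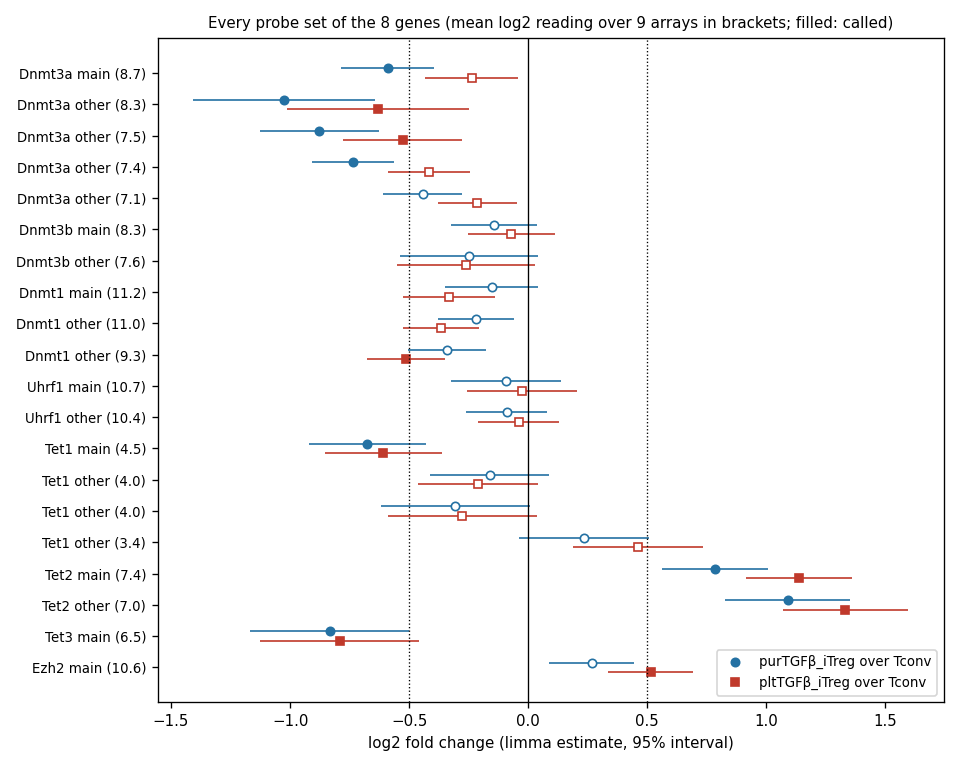
Log2 fold change against Tconv with 95% interval for all 20 probe sets of the 8 genes, for purTGFβ_iTreg (circles) and pltTGFβ_iTreg (squares), each row naming the gene, whether the probe set is the main one, and its mean log2 reading over the 9 arrays. Filled symbols were called changed: the probe sets of Dnmt3a all lie left of 0 and those of Tet2 right of 0, while those of Tet1 fall on both sides.

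The PRC2 partners of EZH2 were unequal. Of 10 measured, 3 rose and 1 fell in each iTreg group against Tconv, with medians of 0.23 in pltTGFβ_iTreg and 0.05 in purTGFβ_iTreg. Under quantile normalization the median in purTGFβ_iTreg turned to -0.073, with 4 called higher there, and with array medians centred 4 were called higher in each. Suz12, a core subunit that PRC2 needs for its activity, averaged 10.80 ± 0.09 in pltTGFβ_iTreg, 10.66 ± 0.10 in purTGFβ_iTreg and 8.67 ± 0.04 in Tconv (SD, n = 3 each). That was a rise of 4.38-fold and 3.98-fold (limma adjusted p = 8.00e-09 and 8.14e-09), and 5 of its 6 probe sets were called higher in both. The accessory subunits Aebp2 and Mtf2 rose by 1.16 and 1.11 in pltTGFβ_iTreg and by 0.99 and 1.07 in purTGFβ_iTreg. Phf19, another accessory subunit, fell, at -0.61 and -0.61. Eed, the core subunit that binds the mark, changed by 0.26 and -0.08, and Ezh1, the paralogue of EZH2, by -0.17 and -0.05, and none of these was called.

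Polycomb repressive complex 1 (PRC1), which ubiquitylates or compacts chromatin beside PRC2, moved both ways. Of 19 measured subunits, 6 rose and 7 fell in pltTGFβ_iTreg, and 5 rose and 7 fell in purTGFβ_iTreg. Quantile normalization gave 6 and 10, and 5 and 9. Among all genes, without that normalization, 28.5% and 29.3% were called in either direction. Phc3, a polyhomeotic subunit, averaged 9.06 ± 0.04 in pltTGFβ_iTreg, 9.24 ± 0.19 in purTGFβ_iTreg and 6.27 ± 0.20 in Tconv (SD, n = 3 each), a rise of 6.91-fold and 7.81-fold. Its dimmer probe set rose by 0.54 and 0.78 on the log2 scale. Bmi1 rose by 2.01 and 1.83 and Pcgf3 by 1.31 and 1.34, both PCGF subunits, of which each complex holds one. Rnf2, a catalytic ubiquitin ligase subunit, rose by 1.21 and 1.26, with 2 of its 5 probe sets called. Members that fell, named after their values were seen, included Ring1, the paralogue of Rnf2, at -0.74 and -0.60, and Phc2, that of Phc3, at -0.67 and -0.64. So did Kdm2b, which brings a variant complex to CpG islands, at -0.63 and -0.99. Between the iTreg groups limma called no PRC1 or PRC2 partner, with an unadjusted p under 0.05 for 4 of 19 and 1 of 10. Over all genes 4.11% were called there and 19.0% had such a p.

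Enzymes and cofactors that reverse Polycomb marks were measured by 6 genes. In pltTGFβ_iTreg 2 rose and 0 fell, and in purTGFβ_iTreg 3 rose and 1 fell, which quantile normalization turned to 2 and 2. Asxl2, a cofactor of the histone deubiquitinase BAP1, rose by 1.61 in pltTGFβ_iTreg and 1.76 in purTGFβ_iTreg, and the deubiquitinase gene Usp16 by 1.42 and 1.11. The histone demethylase gene Kdm6a averaged 7.97 ± 0.06 in pltTGFβ_iTreg, 8.22 ± 0.15 in purTGFβ_iTreg and 7.69 ± 0.25 in Tconv (SD, n = 3 each), and was called higher in purTGFβ_iTreg at 0.53 and not in pltTGFβ_iTreg (0.28). It is X-linked and known to escape X inactivation, and its Y-linked relative Uty was higher in the iTreg arrays by 2.15 and 2.15. Kdm6b, its autosomal paralogue, was called lower in purTGFβ_iTreg at -0.58, with overlapping arrays, and was -0.10 in pltTGFβ_iTreg without a call. Of the 3 Kdm6b probe sets only that 1 was called in purTGFβ_iTreg, the others giving -0.31 and 0.15. The difference between the iTreg groups was called for neither (-0.25 for Kdm6a, adjusted p = 0.369, and 0.48 for Kdm6b, adjusted p = 0.202).

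**Figure D4:**
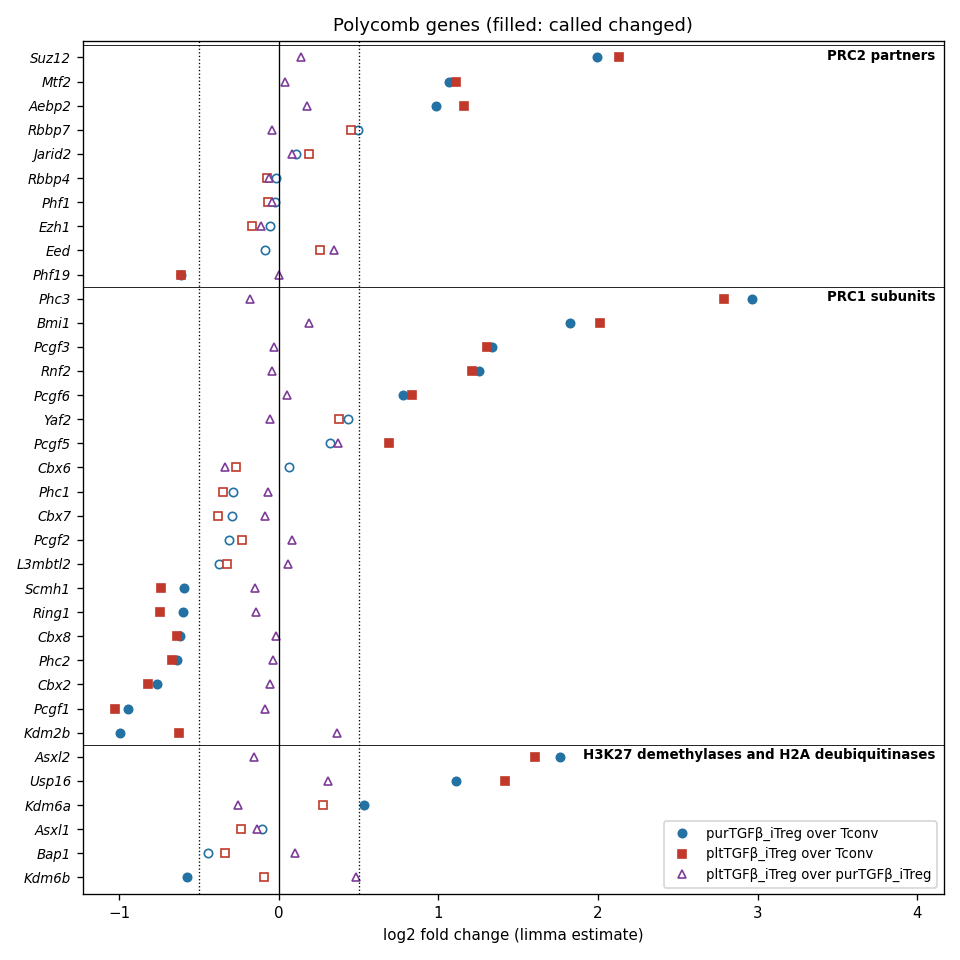
Log2 fold changes of the measured PRC2 partners, PRC1 subunits and genes that reverse Polycomb marks, by main probe set, for purTGFβ_iTreg over Tconv (circles), pltTGFβ_iTreg over Tconv (squares) and pltTGFβ_iTreg over purTGFβ_iTreg (triangles). Filled symbols were called changed and dotted lines mark 0.5 either way: Phc3, Suz12, Bmi1 and Asxl2 lie farthest to the right, and no triangle is filled.

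Partners of DNA methylation held 5 rises and 2 falls in pltTGFβ_iTreg and 4 rises and 2 falls in purTGFβ_iTreg among 12 measured. Hells, a remodelling ATPase that opens nucleosomes to the methyltransferases, averaged 10.28 ± 0.08 in pltTGFβ_iTreg, 10.07 ± 0.16 in purTGFβ_iTreg and 9.03 ± 0.18 in Tconv (SD, n = 3 each), a rise of 1.26 and 1.04. Hdac2, a histone deacetylase, rose by 0.70 and 0.68. Ehmt2, which methylates histone H3 in silent chromatin, fell, at -1.23 and -0.99. Of 7 measured readers of methylated CpG, 2 rose in each iTreg group and 1 fell in pltTGFβ_iTreg. With array medians centred, 2 rose in pltTGFβ_iTreg and 4 in purTGFβ_iTreg and 0 fell in either, and quantile normalization gave 2 rises and 1 fall in each. Zbtb33, which encodes the reader Kaiso, rose 4.09-fold and 4.34-fold, and Mbd2, a methyl-CpG binding protein, by 0.92 and 0.89 on the log2 scale. Zbtb38 was called lower in pltTGFβ_iTreg at -0.54 and was -0.34 in purTGFβ_iTreg without a call.

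Genes that work with the TET enzymes included 2 that differed between the iTreg groups. Of 13 measured, 3 rose and 5 fell in pltTGFβ_iTreg, and 1 rose and 6 fell in purTGFβ_iTreg. The pair called higher in pltTGFβ_iTreg than in purTGFβ_iTreg was Gadd45g and Gadd45b, stress proteins linked to active demethylation, of which Gadd45b was named after its values were seen. Over all genes 1.54% were called higher in this comparison. Gadd45g read 8.39, 8.44 and 8.38 in pltTGFβ_iTreg, 6.59, 6.30 and 6.74 in purTGFβ_iTreg, and 7.58, 7.61 and 7.60 in Tconv. The groups did not overlap, and the difference between the iTreg groups was 1.86 ± 0.10 (log2, SE; limma adjusted p = 1.06e-06). Gadd45b averaged 8.97 ± 0.17, 7.57 ± 0.17 and 8.16 ± 0.12 in the same groups (SD, n = 3 each). Against Tconv both were called higher in pltTGFβ_iTreg (0.80 for Gadd45g, 0.82 for Gadd45b) and lower in purTGFβ_iTreg (-1.05 and -0.59). Ogt, the sugar transferase that binds TET proteins, rose by 1.20 and 1.06. Apobec1, a cytidine deaminase, was 5.76-fold and 5.99-fold lower than in Tconv, and Neil1, a glycosylase of base excision repair, fell, at -1.33 and -1.06.

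**Figure D5:**
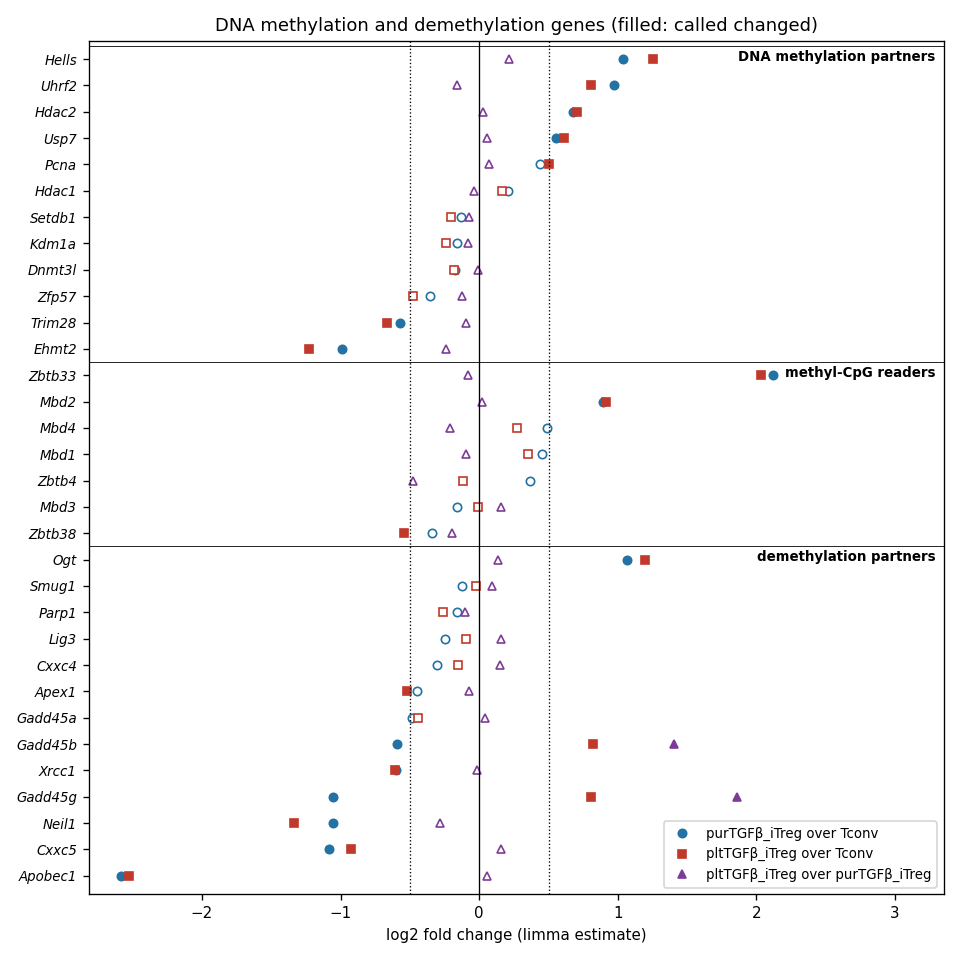
Log2 fold changes of the measured partners of DNA methylation, readers of methylated CpG and partners of demethylation, by main probe set, with the same symbols as for the Polycomb genes. Gadd45b and Gadd45g are the filled triangles, at 1.41 and 1.86, with squares right of 0 and circles left of 0.

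Enzymes that supply the methyl donor, or handle the 2-oxoglutarate that TET enzymes need and its competitors, gave 1 rise and 4 falls in each iTreg group among 11 measured. With array medians centred the falls in pltTGFβ_iTreg numbered 2, and under quantile normalization its rises numbered 0. Idh2, the mitochondrial isocitrate dehydrogenase, was 2.88-fold lower in pltTGFβ_iTreg and 2.81-fold lower in purTGFβ_iTreg than in Tconv. Its cytosolic counterpart Idh1 read 6.32, 6.41 and 6.32 in pltTGFβ_iTreg, 7.28, 7.31 and 7.28 in purTGFβ_iTreg, and 6.96, 6.88 and 6.80 in Tconv. The groups did not overlap, with pltTGFβ_iTreg lowest and purTGFβ_iTreg highest. The difference between pltTGFβ_iTreg and purTGFβ_iTreg was -0.94 ± 0.08 (log2, SE; limma adjusted p = 2.10e-05), and its other probe set gave -1.35. Mat2b, the regulatory subunit of the enzyme that makes the methyl donor, rose by 0.53 and 1.06 against Tconv and was lower in pltTGFβ_iTreg than in purTGFβ_iTreg (-0.52). Mtrr, which reactivates methionine synthase, fell, at -0.56 and -0.79.

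Genes at loci known to lose methylation in regulatory T cells, and at loci that EZH2 is known to bind in helper T cells, were read beside the enzymes. Of 6 measured from the first list, 4 rose and 1 fell in each iTreg group, among them Ikzf2, which encodes Helios, by 2.48 in pltTGFβ_iTreg and 3.00 in purTGFβ_iTreg, and Ctla4, an inhibitory receptor, by 2.36 and 1.86. Il2ra, which encodes the alpha chain of the IL2 receptor, rose by 1.73 and 1.68, and Ikzf4, an Ikaros family factor, by 1.25 and 1.76. The one that fell, named after its values were seen, was Tnfrsf18, which encodes the costimulator GITR, at -0.63 and -1.34. It was higher in pltTGFβ_iTreg than in purTGFβ_iTreg by 0.71 (limma adjusted p = 3.03e-04). Foxp3, the remaining gene of this list, read low in all groups and was not called, at 0.07 and -0.02 against Tconv. Of 8 genes of the second list, 2 rose and 3 fell in pltTGFβ_iTreg and 0 rose and 4 fell in purTGFβ_iTreg. Gata3, the Th2 factor, changed by -2.14 and -2.56, Il4 by -2.49 and -3.04, and Tbx21, the Th1 factor, by -0.80 and -1.15, all called lower. Ifng, the Th1 cytokine, rose by 4.57 in pltTGFβ_iTreg and was -0.29 in purTGFβ_iTreg without a call.

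Genes whose levels ran most like those of the called genes were sought over the 9 arrays, each gene centred on its own mean, by the root mean square difference on the log2 scale. For Tet2 these were Phlda1 and Socs3 (0.084 each) and Lats1 (0.092). For Dnmt3a they were Polr3d (0.063), Srgap3 (0.065) and Umps (0.067), and for Ezh2 they were Dnajb11 (0.040), Alkbh1 (0.042) and Wdr61 (0.044). Tet1 was nearest to Arhgap17 (0.083), Tmem37 (0.090) and Ubox5 (0.093), and Tet3 to Skida1 and Ufsp1 (0.108 each) and Eya2 (0.110). Some of these genes were dim. Over the arrays Skida1 read 2.61 to 3.70, Eya2 3.12 to 4.56, Ufsp1 4.25 to 5.43 and Srgap3 3.62 to 4.51. Whether these read above background is not settled. The points share the 3 groups, so the likeness describes group means and array noise together.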

How the data were processed

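RNA of 9 samples was hybridised to Affymetrix mouse genome GeneChips. The deposited values are log2 expression by RMA, made by the authors in Expression Console per the labels and design text, which name ANOVA in Partek Genomics Suite 6.6, a 1.4-fold cutoff and a 10% false discovery rate. RMA compresses values near background, so folds of dim genes are understated. Precision is limited by having 3 arrays per group, and p-values measure the spread between these arrays.

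Of 45101 probe sets, 64 Affymetrix controls were left out. In the platform annotation 34945 of the rest had 1 symbol, 932 had several, which were not used for names, and 9160 had none listed. Some genes of the lists were not analysed here, and counts are over the genes measured. limma 3.58.1 in R 4.3.3, tested on simulated data, fitted a mean per group over all 9 arrays, with 3 two-sided contrasts and Benjamini-Hochberg adjustment over all 45037 probe sets. Exact permutation of 3 against 3 arrays has a smallest p of 0.1 and was not used. Python 3.11.15, pandas 2.3.3 and matplotlib 3.10.9 made tables and plots.

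The text names all 8 genes, up to 4 called genes with the lowest adjusted p of each other list, some partners whatever their values (Ezh1, Eed, Suz12, Kdm6a, Kdm6b, Uhrf2, Hells, Dnmt3l, Idh1, Foxp3, Mki67, Pcna, Xist, Eif2s3y), and the 3 genes nearest in pattern to each called gene. The adjusted p between the iTreg groups counted in this rule, beside those against Tconv. Genes outside this rule are said to be named after their values were seen. Genes and lists were chosen with earlier results of these data known, and are no independent support for a direction. Alternatives were quantile normalization, centred array medians, a filter on the dimmest 40% of probe sets, trended robust variances, no moderation, only the groups compared, array weights, a replicate block, probe sets averaged per gene, other cutoffs and each array left out.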

Additional observations from a re-analysis of the deposited data

Results flagged for a closer look

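Among the named genes, 13 changed against Tconv by different amounts in the iTreg groups. The test was of that difference itself (limma, pltTGFβ_iTreg over purTGFβ_iTreg, adjusted p from 3.30e-09 to 0.0199). Genes were named partly by a low adjusted p, and this same test counted there, so the 13 are a selected set. Their number does not measure how often genes differed between the iTreg groups. Over all genes 4.11% were called in this comparison. Ifng differed by 4.87 and Gadd45g by 1.86 on the log2 scale. Gadd45b differed by 1.41. Both Gadd45g and Gadd45b had opposite signs against Tconv, called higher in pltTGFβ_iTreg (0.80 and 0.82) and lower in purTGFβ_iTreg (-1.05 and -0.59). Of the markers of other cells, Itgb3 differed by 1.75, Klrd1 by -1.27 and Cd74 by 0.61. The second Itgb3 probe set gave 0.26 and was not called. Tnfrsf18 differed by 0.71. Idh1 differed by -0.94, called lower in pltTGFβ_iTreg (-0.53) and not called in purTGFβ_iTreg (0.41). The other, dimmer Idh1 probe set was called lower in pltTGFβ_iTreg (-0.82) and higher in purTGFβ_iTreg (0.53). Smaller differences, of 0.51 for Ctla4, 0.56 for Il4, -0.52 for Ikzf2, -0.51 for Ikzf4 and -0.52 for Mat2b, lay close to the fold cutoff. Ikzf2 and Ikzf4 were not called under quantile normalization. Of 3 probe sets each, 1 of Ikzf2 and 2 of Ikzf4 were called lower. Il4 was dim in both iTreg groups, averaging 4.40 in pltTGFβ_iTreg and 3.85 in purTGFβ_iTreg, so without detection calls its difference is not settled. Gadd45b and Tnfrsf18 were named after their values were seen. Dnmt3a, Dnmt3b, Dnmt1, Uhrf1, Tet1, Tet2, Tet3 and Ezh2 were not among them.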

How the results depend on the processing

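Over 480 repeats of the changes of the 8 genes, 457 kept direction and side of the cutoffs, 13 lost a call, 4 gained one and 6 turned sign, the last for uncalled changes near 0. Many repeats leave the log2 changes as they are and could not turn a sign. These were the other variances, the groups compared alone, the replicate block, the other cutoffs, and arrays left out of a group not compared. The 457 are therefore no count of independent checks. Uhrf1 in pltTGFβ_iTreg over Tconv turned to 0.0308 with centred medians, and leaving out each array gave -0.152 to 0.059. In pltTGFβ_iTreg over purTGFβ_iTreg leaving out each array gave -0.0308 to 0.149 for Tet1 and -0.0307 to 0.126 for Tet3. At an adjusted p under 0.05 and 2-fold, 1 of the 8 genes, Tet2, was called in pltTGFβ_iTreg over Tconv and 0 in purTGFβ_iTreg over Tconv, with 1839 and 2033 genes in all and 169 between the iTreg groups. At an adjusted p under 0.05 with no fold cutoff, 1 of the 8, Dnmt3a, was called between the iTreg groups, and all genes called numbered 9522 in pltTGFβ_iTreg over Tconv, 9993 in purTGFβ_iTreg over Tconv and 1335 between the iTreg groups, against 5194, 5339 and 748 at the cutoffs used. Leaving out each array gave 3 to 4 of the 8 genes in pltTGFβ_iTreg over Tconv, 4 in purTGFβ_iTreg over Tconv and 0 between the iTreg groups. Same-numbered arrays deviated together at r = 0.092 to 0.262 between the iTreg groups and at -0.123 to 0.085 with Tconv, and 7 of 9 arrays correlated best with their own number, a hint from the data and not the design. With the replicate block the counts of the 8 genes were 4, 4 and 0, as without it. The block leaves the log2 changes as they are, so the 0 between the iTreg groups could not move. The missing detection calls limit what can be said of Tet1 and Foxp3, and of Il4 between the iTreg groups.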
